A study of Mus musculus with 14 samples.

Results

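The measurement described here is the level of each gene in germinal centre B cells that carry 1 floxed allele of Crebbp, set against the midpoint of the cells with 0 and with 2 floxed alleles. The 5 heterozygous (HET) arrays were compared with the average of the wild-type mean (WT, 4 arrays) and the knockout mean (KO, 5 arrays), which uses all 14 arrays of the series. A gene whose level follows the number of functional alleles in equal log2 steps has a difference of 0 from this midpoint, called the departure below. A gene with a recessive pattern lies at the WT mean in HET cells, and a gene with a haploinsufficient pattern lies at the KO mean. Of the 18193 genes with a probe set annotated to a single gene, 10225 were bright enough to be tested, each through its brightest such probe set.

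All mice carried the Cg1-Cre transgene on a C57BL/6x129Sv background and differed at Crebbp: Crebbp+/+ in WT, Crebbpfl/+ in HET and Crebbpfl/fl in KO. In this strain Cre is made from the constant region locus of the immunoglobulin gamma 1 heavy chain, which is transcribed in B cells after activation, so deletion takes place in activated B cells and their progeny. The mice were 8 to 12 weeks old, were injected with sheep red blood cells on day 0 and again on day 5 and were killed on day 12, and splenic B220+CD95+PNA+ cells of each mouse gave 1 array. Males made up 1 of 4 WT, 2 of 5 HET and 3 of 5 KO mice, and sex was a term in the fit reported here.

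Crebbp encodes the CREB-binding protein, a lysine acetyltransferase that is recruited by transcription factors such as CREB and acetylates histones at enhancers and promoters. Its paralogue Ep300 has an overlapping role in the same cells. In the germinal centre, B cells alternate between the dark zone, where they divide and mutate their antibody genes, and the light zone, where they are selected by antigen and T cell help. Mutations of CREBBP in human lymphomas of germinal centre origin often leave 1 allele intact, which is why the level of a target gene in heterozygous cells is of interest.

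Values are log2 intensities, and the number of arrays limits their precision. On the tested genes the median correlation of an array with the others ran from 0.979 (KO 3) to 0.990. All 12 measured markers of B cells and of germinal centre B cells passed the brightness limit, with mean log2 levels from 7.61 to 13.7. Of 8 marker lists for other cells, 1 held a gene with an unadjusted p under 0.05 for the departure, S1pr1 of the follicular and marginal zone B cells. The neutrophil list, with 6 of its 8 measured markers under the brightness limit, had summed log2 levels of 8.48 to 10.8 in WT, 8.44 to 10.9 in HET and 8.52 to 10.5 in KO, so its range overlapped between groups. The summed log2 levels of the follicular and marginal zone B cell list were 12.6 to 12.7 in WT, 12.3 to 12.7 in HET and 12.1 to 12.6 in KO, with WT and KO apart and HET overlapping both. The dendritic cell list gave 11.1 to 11.2, 10.9 to 11.2 and 10.7 to 11.1, the B cell list 15.27 to 15.36, 15.24 to 15.30 and 15.20 to 15.26, and the germinal centre B cell list 15.25 to 15.33, 15.21 to 15.27 and 15.16 to 15.23. The part of these cells in the results was not tested. In sorted populations a change of a gene's level in every cell and a change in the share of cells that make it cannot be told apart, and neither can partial loss in each HET cell and full loss in some of them.

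Across the 10225 tested genes, no departure of HET from the midpoint passed the test. The limma fit called 0 genes (0%) at an adjusted p under 0.05, and the smallest adjusted p rounded to 1.00. At an unadjusted p under 0.05 there were 91 genes (0.89%), fewer than uniformly spread p-values would give. HET was above the midpoint in 60 of them (0.587%) and below it in 31 (0.303%). Read by the nearer group, HET lay on the WT side in 62 (0.606%) and on the KO side in 29 (0.284%). The median departure of all tested genes was 0.01 log2 units, the central 90% lay between -0.10 and 0.12, and the median standard error (SE) was 0.08. With limma's array weights, which give arrays that scatter more a lower weight, 668 genes (6.53%) had an unadjusted p under 0.05 and again 0 an adjusted one.

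The genes that respond to the loss of both alleles are the ones for which a position of HET can be read. KO against WT, a comparison that leaves the HET level out, called 249 genes (2.44%) at an adjusted p under 0.05, 120 of them higher and 129 lower in KO, and these are called responsive genes here. They were chosen from the WT and KO arrays through a fit that shares 1 estimate of the spread over the 3 groups. In this design the estimates of the departure and of the KO to WT difference have a correlation of 0.06, so the choice of genes leaves the departure almost free. The position of HET is its difference from WT divided by that of KO from WT, so that 0 is the WT mean, 0.5 the midpoint and 1 the KO mean.

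**Figure D1:**
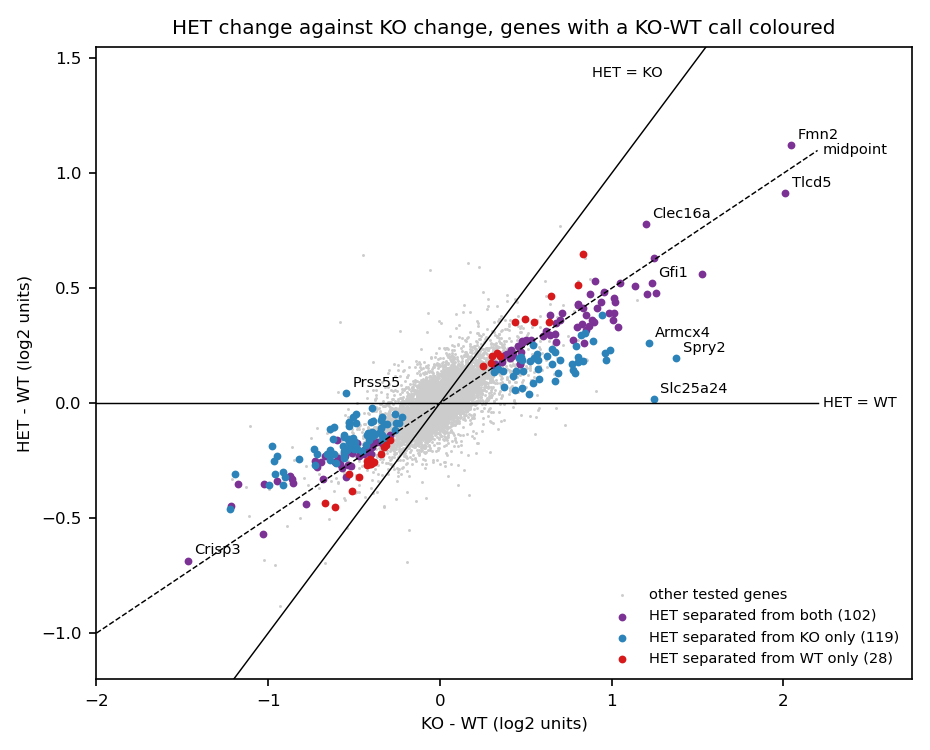
Each point is 1 tested gene, with the KO minus WT difference on the horizontal axis and the HET minus WT difference on the vertical axis, both in log2 units from the limma fit. The 249 responsive genes are coloured by which of the other groups HET was separated from at an unadjusted p under 0.05, grey points are the other tested genes, and lines mark HET at the WT mean, at the midpoint and at the KO mean. Most coloured points lie between the midpoint line and the WT line, with Prss55 and Slc25a24 on the WT line.

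The HET mean lay between the other 2 means for every responsive gene except Prss55, and closer to WT than to KO for most. The position had a median of 0.39, with quartiles at 0.32 and 0.50 and the extremes at -0.08 (Prss55) and 0.81 (Jmy). HET was on the WT side of the midpoint in 185 of 249 genes (74.3%), against 52.9% of all tested genes. Positions between 0.4 and 0.6 were found in 98 genes, under 0.2 in 26 and over 0.8 in 1. On the linear intensity scale the median position was 0.40 and 193 genes lay on the WT side. Among the 471 genes whose KO to WT test missed the threshold with an adjusted p up to 0.2, the median position was 0.41 and 66.5% lay on the WT side. Of these 471, 6 on the WT side and 4 on the KO side had an unadjusted p under 0.05 for the departure.

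Separation from each neighbour divided the responsive genes into 3 classes, each by an unadjusted limma p under 0.05. HET was separated from both WT and KO in 102 genes (41.0%, against 0.998% of all tested genes). It was separated from KO and not from WT in 119 (47.8%, against 5.37%), and from WT and not from KO in 28 (11.2%, against 1.72%). Over all tested genes, HET differed from WT at this threshold in 2.74% and from KO in 6.39%. The responsive genes were called on the WT and KO arrays that these tests share, so the class shares are a description. A missed threshold does not place HET at the group it was not separated from: Crebbp itself fell in the class separated from KO only, at a position of 0.39. None of the 249 passed an adjusted p under 0.05 for HET against WT.

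The class moved with the size of the KO change. Among the 25 genes that changed by at least 1 log2 unit in KO, 80% were separated from both neighbours and 20% from KO only, with a median position of 0.39. Among the 128 genes that changed by 0.5 to 1, 38.3% were separated from both, 54.7% from KO only and 7.03% from WT only, with a median of 0.37. Among the 96 genes with smaller changes, 34.4% were separated from both, 45.8% from KO only and 19.8% from WT only, with a median of 0.46. Since each class rests on p thresholds, which larger changes pass more readily, these shares are a description.

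**Figure D2:**
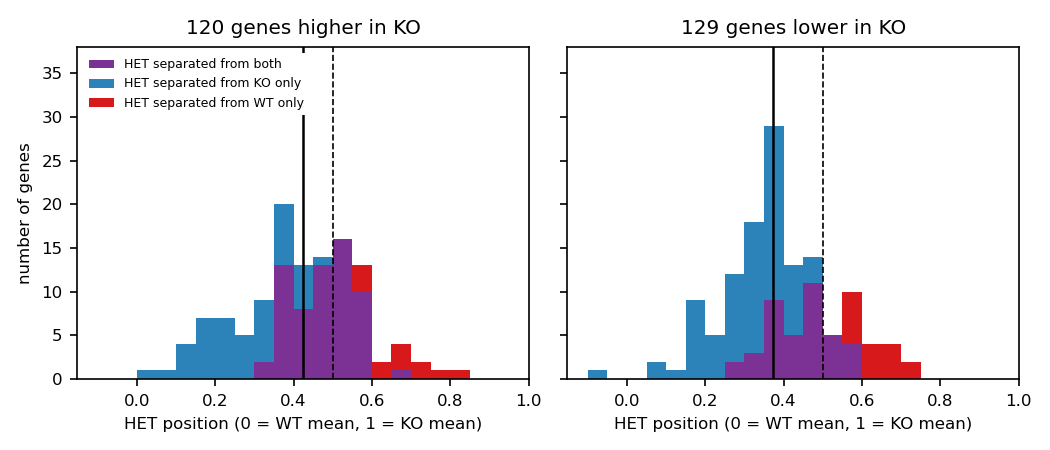
Number of genes (vertical axis) by the position of HET between the WT mean (0) and the KO mean (1) on the horizontal axis, for the 120 genes higher in KO (left) and the 129 lower in KO (right), coloured by class. The solid line is the median, 0.42 on the left and 0.37 on the right, and the dashed line is the midpoint.

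Genes that lost expression in KO and genes that gained it gave slightly different pictures. Of the genes higher in KO, 63 of 120 were separated from both neighbours, 45 from KO only and 12 from WT only. Of the genes lower in KO, 39 of 129 were separated from both, 74 from KO only and 16 from WT only. The median position was 0.42 for the first group and 0.37 for the second, and 67.5% and 80.6% of them lay on the WT side. The order of the 2 medians turned on the linear scale, where the same genes gave 0.36 and 0.42, and with median-centred arrays, where the genes called there gave 0.39 and 0.41. It also turned without HET 2, with 0.40 and 0.44. No difference between the directions is therefore drawn from them, and it was not tested.

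The individual HET mice gave like positions over the 249 genes together. With sex removed, the least-squares position over the 249 genes was 0.369 in HET 1, 0.360 in HET 2, 0.415 in HET 3, 0.436 in HET 4 and 0.371 in HET 5, a mean of 0.390 ± 0.033 (SD, n = 5). All 5 mice were thus on the WT side of the midpoint by this measure. None reached the range of the WT arrays (-0.043 to 0.020) or of the KO arrays (0.965 to 1.06), from which the scale was built. Over the genes higher in KO the mean was 0.402 ± 0.021 (SD, n = 5). Over the genes lower in KO it was 0.373 ± 0.091 (SD, n = 5), with HET 2 lowest at 0.250 and HET 4 highest at 0.475. The median position over the genes lower in KO, which gives each gene the same weight, was 0.204 in HET 2. In HET 4 it was 0.526, on the KO side of the midpoint. Over all 249 genes the medians ran from 0.334 (HET 2) to 0.481 (HET 4).

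**Figure D3:**
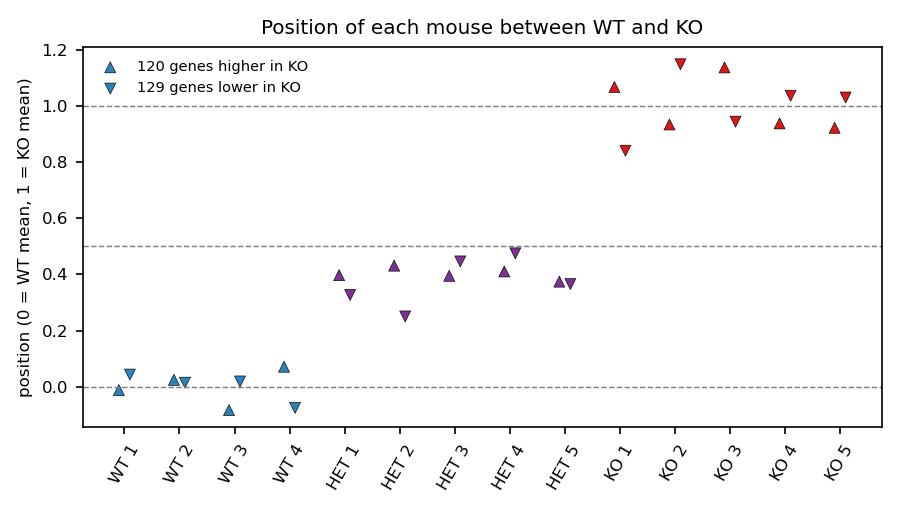
Least-squares position of each mouse (vertical axis, 0 the WT mean and 1 the KO mean, sex removed) over the 120 responsive genes higher in KO (triangles pointing up) and the 129 lower in KO (triangles pointing down), with dashed lines at 0, 0.5 and 1. The 5 HET mice sit between 0.250 and 0.475, below the midpoint line for both gene sets, and apart from all WT and KO mice.

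Among the responsive genes, those with the smallest p for the departure had HET near the WT level. Of the 249 responsive genes, 20 (8.03%, against 0.606% of all tested genes) had an unadjusted p under 0.05 on the WT side, 10 higher and 10 lower in KO. On the KO side the count was 0 of 249, where 0.284% of all tested genes lay. The 20 genes had departures of 0.12 to 0.60 log2 units in size and positions from -0.08 to 0.26. All HET arrays stood apart from all KO arrays in 17 of them and from all WT arrays in 0. Over the responsive genes as a whole HET stood apart from KO in 92 (36.9%, against 1.43% of all tested genes) and from WT in 48 (19.3%, against 1.5%). The KO change that chose the responsive genes, and the WT side that chose the 20, favour these counts, so nothing is read from them. None of the 20 passed adjustment over all genes.

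Prss55, a serine protease, had the smallest p of any gene tested and fell in KO. Its log2 levels were 7.10, 6.97, 7.15 and 7.41 in WT, 7.30, 7.19, 7.04, 7.34 and 7.24 in HET, and 6.70, 6.59, 6.74, 6.62 and 6.64 in KO. The HET and WT mice overlapped, and all lay above the KO mice. The departure was 0.32 (SE 0.06, 95% interval 0.18 to 0.45, unadjusted p = 0.000279), and the KO to WT difference was -0.55 (SE 0.08).

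Slc25a24, a calcium-regulated carrier of ATP-Mg and phosphate in the inner mitochondrial membrane, rose in KO and had the largest departure of the 20. It measured 6.24, 6.52, 6.90 and 7.18 in WT, 6.81, 6.74, 6.77, 6.43 and 6.88 in HET, and 7.85, 7.83, 8.50, 7.68 and 7.91 in KO. All HET mice lay within the WT range. The departure was -0.60 (SE 0.16, unadjusted p = 0.00229) beside a KO to WT difference of 1.25 (SE 0.20), which put HET at a position of 0.01.

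Spry2, a Sprouty protein that restrains Ras and ERK signalling downstream of receptor tyrosine kinases, showed the same order. Its levels were 5.72, 5.80, 6.03 and 6.03 in WT, 6.48, 6.16, 6.04, 5.69 and 6.17 in HET, and 7.28, 7.26, 6.66, 7.70 and 7.65 in KO. One HET mouse, HET 4, lay below every WT mouse, and none reached the lowest KO mouse. The departure was -0.49 (SE 0.16, unadjusted p = 0.00922) and the KO to WT difference 1.38 (SE 0.20). Spry2 passed the brightness limit through KO: of the 20 genes it is the 1 whose fitted WT and HET means both lie under the limit. In 3 of the 20, Spry2, Armcx4 and Ggh, the fitted WT mean does. The nearness of HET to WT in Spry2 is therefore read where both are dim.

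Armcx4, an X-linked armadillo repeat protein, measured 6.27, 6.57, 5.93 and 6.70 in WT, 6.61, 6.92, 6.51, 6.60 and 6.55 in HET, and 7.58, 7.71, 7.60, 7.68 and 7.46 in KO. Its HET values overlapped WT at the upper end, for a position of 0.22 and a departure of -0.35 (SE 0.11, unadjusted p = 0.00891). The fitted WT mean of Armcx4, 6.38, lay under the brightness limit of 6.43. Of the 20, these 4 were the genes whose unadjusted p stayed under 0.05 in all 14 fits that each left out 1 array. Armcx4, Prss55 and Spry2 belong to no pathway list used here, and neither does Slc25a24.

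Ebi3, a subunit shared by the cytokines IL-27 and IL-35 and a gene of the light zone and CD40 lists, fell in KO. It measured 9.35, 9.44, 9.18 and 9.24 in WT, 9.14, 9.25, 9.29, 8.93 and 9.23 in HET, and 8.76, 8.56, 8.70, 8.80 and 8.29 in KO. HET overlapped WT and lay above all KO mice, at a position of 0.17 (departure 0.20, SE 0.08, unadjusted p = 0.0190). It kept an unadjusted p under 0.05 in 13 of the 14 fits.

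The remaining genes of the rule on this side were Slc49a4, Psen2 and Ggh. Slc49a4, a lysosomal membrane transporter, rose in KO by 0.67 (SE 0.12) and had a departure of -0.24 (SE 0.09). Psen2, a presenilin and thus a catalytic subunit of gamma-secretase, fell by 0.60 (SE 0.07) and had a departure of 0.14 (SE 0.06); HET was separated from WT as well, at a position of 0.26. Ggh, which trims the glutamate tail of folates, rose by 0.78 (SE 0.12) and had a departure of -0.24 (SE 0.10).

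Others among the 20 were Marcks, a membrane and actin-binding substrate of protein kinase C, at a position of 0.14, and Mxd1, a MAX partner that opposes MYC, at 0.08. Bmf, a BH3-only promoter of apoptosis, fell in KO by 0.50 (SE 0.11) and had a position of 0.12. Another bright probe set of Bmf, with a KO to WT difference of -0.22 (SE 0.14), gave 0.72. So did 1 under the brightness limit, with a difference of -0.19 (SE 0.13). Zmat3, an RNA-binding target of p53, rose by 0.44 (SE 0.09) and had a position of 0.13. The others were Acad8, Aldh3b1, Gm9564, Hemgn, Nudt14, Pdlim1, Pear1 and Ubxn11.

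The count of 20 moved with single arrays. Over the same 249 genes it was 7 without HET 1, 13 without WT 2, WT 4, HET 2 or HET 3 in turn, and 15 to 24 without any of the other 9 arrays. The count on the KO side was 2 without WT 4 or HET 1, 3 without KO 3, 1 without KO 4, and 0 without any of the other 10. With array weights the 2 counts were 44 and 6.

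**Figure D4:**
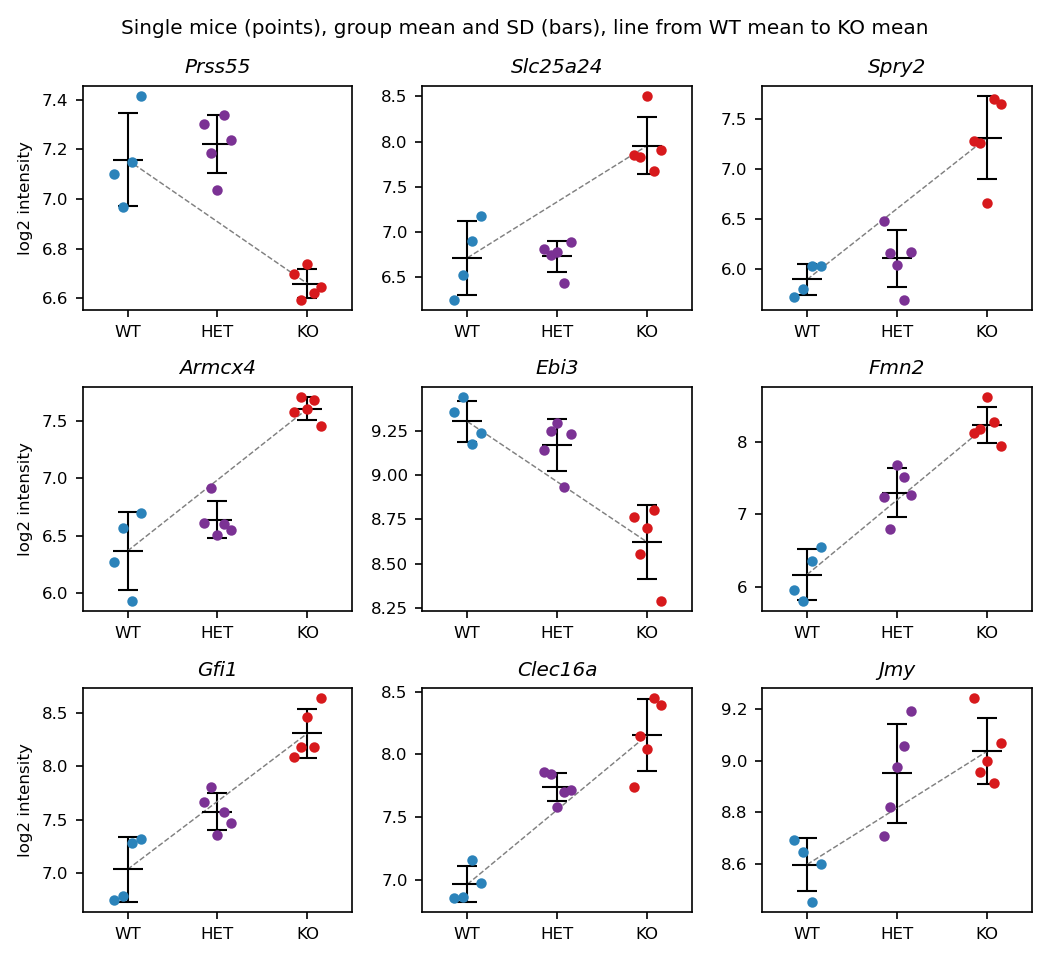
Log2 intensity (vertical axis) of 9 responsive genes in single WT, HET and KO mice (points), with the group mean and SD (bars) and a dashed line from the WT mean to the KO mean, whose centre is the midpoint. For Prss55, Slc25a24, Spry2, Armcx4 and Ebi3 the HET mice cluster near the WT mice, for Fmn2 and Gfi1 they lie near the line, and for Clec16a and Jmy their mean lies on the KO side of it.

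The 8 genes with the largest KO change among those separated from both neighbours had positions from 0.37 to 0.55 on the log2 scale and from 0.25 (Adgrl2) to 0.60 (Crisp3) on the linear scale. The choice itself keeps positions away from either end. Fmn2, a formin that nucleates actin filaments, measured 5.96, 5.80, 6.36 and 6.55 in WT, 7.23, 6.80, 7.67, 7.52 and 7.26 in HET, and 8.12, 8.18, 8.61, 8.27 and 7.94 in KO. The 3 groups did not overlap. KO exceeded WT by 2.05 (SE 0.20) and HET by 1.12 (SE 0.20), a position of 0.55 with a departure of 0.10 (95% interval -0.25 to 0.45, unadjusted p = 0.541). This interval leaves out a position at either end. The fitted WT mean of Fmn2, 6.18, lay under the brightness limit of 6.43, and its position on the linear scale was 0.38.

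Tlcd5, a TLC domain membrane protein, measured 7.54, 6.65, 6.93 and 7.44 in WT, 8.07, 7.89, 8.01, 8.37 and 8.12 in HET, and 9.73, 9.51, 8.85, 9.35 and 8.78 in KO. Its groups did not overlap either, and HET had a position of 0.45 with a departure of -0.09 (95% interval -0.45 to 0.27).

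Gfi1, a zinc finger repressor of transcription in lymphoid and myeloid cells, measured 6.75, 6.79, 7.29 and 7.32 in WT, 7.67, 7.81, 7.36, 7.57 and 7.47 in HET, and 8.08, 8.19, 8.46, 8.18 and 8.64 in KO. Each HET mouse lay above all WT and below all KO mice, for a position of 0.42 and a departure of -0.09 (95% interval -0.36 to 0.17). Such a complete order of the 3 groups was found in 16 of the 249 genes, against 0.166% of all tested genes, of which 16 of 17 were among the 249 (the KO to WT difference that chose the genes is part of this order, and nothing is read from it), among them Fmn2, Tlcd5, Gfi1, Thyn1, Poglut2 and Rgs13.

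Kdm5b, which removes methyl groups from lysine 4 of histone H3, rose in KO by 1.26 (SE 0.15) and had a position of 0.38. Eno2, the neuronal form of the glycolytic enzyme enolase, rose by 1.25 (SE 0.21) and had a position of 0.51 with a departure of 0.01 (SE 0.16). The fitted WT mean of Eno2, 6.14, also lay under the brightness limit, and its position on the linear scale was 0.39. Adgrl2, also known as latrophilin 2, rose by 1.53 (SE 0.25) and had a position of 0.37. Crisp3, a cysteine-rich secretory protein, fell by 1.47 (SE 0.29) and had a position of 0.47. Ccdc175 fell by 1.21 (SE 0.19) and had a position of 0.37. None of the 8 had an unadjusted p under 0.05 for the departure on the log2 scale, while on the linear scale Kdm5b had 0.0329 by limma. Its other probe sets, all under the brightness limit, differed. One gave a position of 0.13 with a departure of -0.28 (SE 0.12). Another gave 0.45 with a departure of -0.02 (SE 0.07). The last had a KO to WT difference of only 0.17 (SE 0.13) and a departure of -0.19 (SE 0.11).

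On the KO side the departures were smaller relative to their errors. Clec16a, an endosomal regulator of mitophagy, measured 6.86, 6.86, 7.16 and 6.97 in WT, 7.86, 7.84, 7.58, 7.70 and 7.72 in HET, and 7.74, 8.14, 8.04, 8.45 and 8.39 in KO. All HET mice lay above all WT mice, and HET 1 and HET 2 lay above the lowest KO mouse. The position was 0.65 and the departure 0.18 (SE 0.11, 95% interval -0.05 to 0.41, unadjusted p = 0.118). Clec16a lies on chromosome 16 with Crebbp and was the only other responsive gene within 10 Mb of it in RefSeq's annotation. The 240 responsive genes on other chromosomes had a median position of 0.39.

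Jmy, an actin nucleator that also binds p300 as a cofactor of p53, had the highest position of all responsive genes, 0.81. It measured 8.69, 8.65, 8.45 and 8.60 in WT, 8.71, 8.82, 8.98, 9.06 and 9.19 in HET, and 9.24, 8.96, 9.00, 8.91 and 9.07 in KO. HET overlapped KO and lay above all WT mice. The departure was 0.13 (SE 0.08, unadjusted p = 0.134), and a second bright probe set of Jmy gave a position of 0.50.

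Ldlrad4, an inhibitor of TGF-beta signalling, measured 7.19, 6.97, 7.03 and 7.07 in WT, 7.49, 7.51, 7.58, 7.25 and 7.65 in HET, and 7.47, 7.57, 8.02, 7.75 and 7.35 in KO. Its HET and KO mice overlapped and all lay above WT, for a position of 0.72 and a departure of 0.14 (SE 0.08, unadjusted p = 0.0976). That was the smallest p of the responsive genes on the KO side of the midpoint. Faah, which breaks down the endocannabinoid anandamide, had a position of 0.78. Myo1f, an unconventional myosin of leukocytes, had one of 0.75, Gch1, the first enzyme of tetrahydrobiopterin synthesis, 0.74, and Gstp3, a glutathione transferase, 0.67. For Gstp3 the groups did not overlap. Its HET mice measured 7.34 to 7.46, between the KO mice at 7.11 to 7.32 and the WT mice at 7.59 to 7.77. In each of these genes HET was separated from WT and not from KO at an unadjusted p under 0.05, and the departure itself did not reach that threshold.

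Crebbp was read by 4 probe sets, all above the brightness limit and all lower in KO at an unadjusted p under 0.05. The brightest measured 12.42, 12.40, 12.36 and 12.44 in WT, 12.25, 12.10, 12.15, 12.43 and 12.40 in HET, and 12.12, 12.05, 11.71, 12.15 and 12.17 in KO. HET overlapped both neighbours, with HET 4 and HET 5 in the WT range and HET 2 and HET 3 in the KO range. Its position was 0.39 and its departure 0.05 (SE 0.07, unadjusted p = 0.544). The other 3 probe sets, fitted over all probe sets, gave positions of 0.25, 0.39 and 0.58 and departures between -0.03 and 0.12. Where these probe sets lie relative to the floxed part is not given in the sources used here, so they check the labels only as far as transcript level follows the number of intact alleles. Ep300 had a KO to WT difference of -0.01 (SE 0.13) and a departure of -0.06 (SE 0.10).

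Most of the 91 genes with an unadjusted p under 0.05 were not responsive genes. HET lay beyond the means of both other groups in 69 of them, above both in 48 and below both in 21, and within their range in 22. The 20 responsive genes above were the only responsive ones among the 91. In 0 of the 91 did all HET arrays stand apart from all arrays of both other groups on the same side.

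Aire, the autoimmune regulator known from the thymus, had the second smallest p. It measured 6.80, 6.65, 6.70 and 6.39 in WT, 6.84, 7.03, 6.80, 7.02 and 7.01 in HET, and 6.67, 6.68, 6.87, 6.67 and 6.50 in KO. HET was above the other groups on average, and its lowest mice overlapped the highest of WT and KO (departure 0.28, SE 0.07, unadjusted p = 0.00141). Its mean level of 6.76 was close to the brightness limit of 6.43.

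S1pr1, the sphingosine 1-phosphate receptor that draws lymphocytes out of lymphoid tissue, measured 6.65, 6.53, 6.65 and 6.79 in WT, 6.26, 6.95, 6.15, 5.90 and 6.06 in HET, and 6.95, 7.25, 6.76, 6.49 and 6.79 in KO. Of the HET mice 4 lay below all others, and HET 2 lay within the KO range (departure -0.49, SE 0.16, unadjusted p = 0.00868). The other genes of the rule were 2610507I01Rik, Mustn1 and Prg2 above the midpoint, by 0.31 (SE 0.09), 0.23 (SE 0.08) and 0.36 (SE 0.12), and Rab15 below it, by -0.20 (SE 0.07). All 6 had adjusted p-values that rounded to 1.00. Under the brightness limit of 6.43 lay the fitted HET means of S1pr1, 6.27, and Rab15, 6.39. So did the fitted WT means of 2610507I01Rik, 6.33, and Prg2, 6.39.

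Gene lists for germinal centre programmes were described by the median of their tested members. In the light zone list, genes raised during selection such as Cd83, Cd86 and Egr3, KO was below WT by a median of -0.30 and HET by a median of -0.11. HET lay on the WT side in 18 of 24 members. Of all tested genes 52.9% did, which is the base for the side counts of the lists below too. The median departure of the list was 0.05, beside 0.01 for all tested genes. Its 4 responsive members were Ebi3, Cd69, Egr3 and Nr4a1. Cd69, an early activation antigen, had a position of 0.33, and Egr3, an immediate early transcription factor, 0.39. Nr4a1, an orphan nuclear receptor induced by antigen receptor signalling, fell by 0.86 (SE 0.10) in KO and had a position of 0.39. Of the 24 members, 1 (Ebi3) had an unadjusted p under 0.05 for the departure. The list median was positive in all 27 other fits, and lowest at 0.01 without HET 2.

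CD40 and NF-kB targets gave a median of -0.27 in KO and -0.08 in HET, with 15 of 19 members on the WT side and a median departure of 0.06, the highest of the 23 lists, which was 0.01 without HET 1. Ebi3 is a member of this list too, and its other responsive member, Map3k8, a kinase upstream of ERK, had a position of 0.65. MHC class II genes gave -0.12 and -0.05, with 14 of 17 on the WT side. H2-Ab1, the beta chain of the class II molecule I-A, measured 13.69, 13.64, 13.70 and 13.67 in WT, 13.59, 13.64, 13.66, 13.56 and 13.56 in HET, and 13.37, 13.43, 13.54, 13.46 and 13.37 in KO. HET overlapped WT and lay above every KO mouse, at a position of 0.28 with a departure of 0.05 (SE 0.04). H2-Eb1, the beta chain of I-E, had a position of 0.37, and H2-DMa, a subunit of the peptide exchanger for class II, 0.36. The lists share members, so their medians are not independent.

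Not every list with a KO change leaned towards WT. Immediate early genes had a median of -0.35 in KO and -0.24 in HET, with 10 of 16 members on the KO side and a median departure of -0.02. That median turned positive in 4 of the 27 other fits, at 0.02 without HET 3 and 0.01 with array weights, and was -0.12 without HET 2. Fos, the founding member of this group, varied so widely that its departure of -0.76 had an SE of 0.85. The list of cAMP and CREB targets gave -0.20 and -0.13, with 10 of 17 on the WT side and a median departure of 0.02 that turned in 5 of the other fits, to -0.02 without KO 3. Its responsive members were Nr4a1, the clock gene Per1 with a position of 0.37, and Rgs2, which shortens G protein signals, with 0.36. B cell receptor signalling genes gave -0.15 and -0.07 and MHC class I genes -0.11 and -0.06, with median departures of 0.01 and 0.00, both at -0.01 with median-centred arrays.

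**Figure D5:**
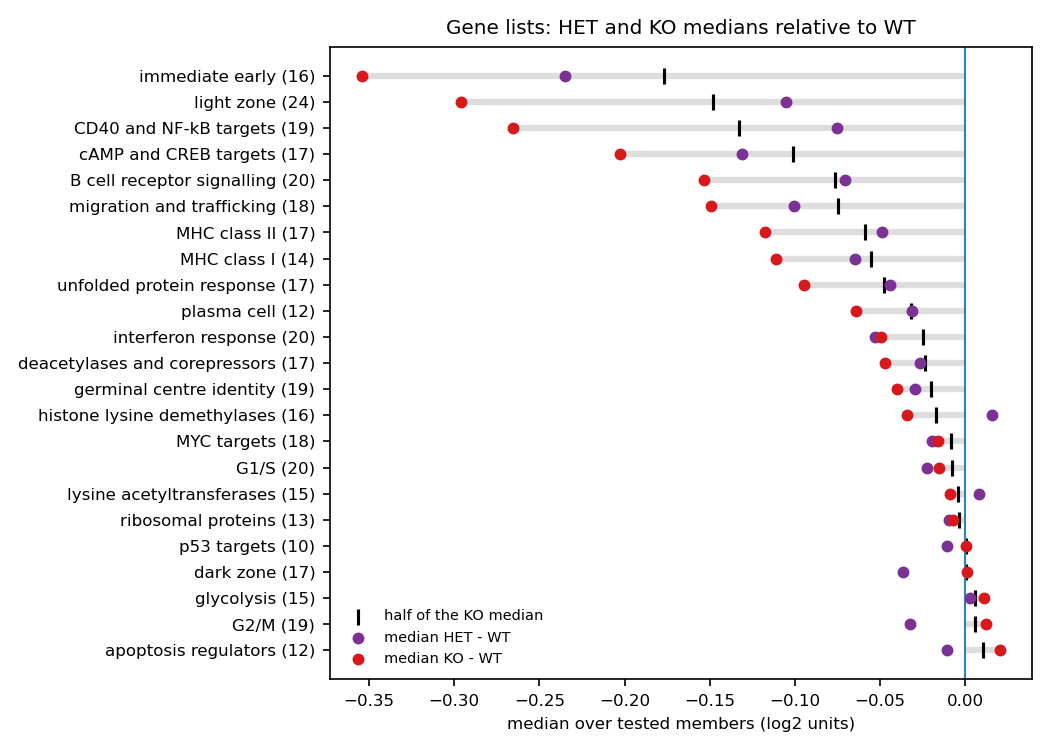
Median HET minus WT difference (purple) and KO minus WT difference (red) over the tested members of 23 gene lists, in log2 units, with the number of tested members in brackets, a black tick at the point that is 0.5 of the KO median and a blue line at WT. In the light zone and CD40 lists the HET median lies between the tick and WT, and in the immediate early list between the tick and the KO median.

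The G2/M and dark zone lists had mostly negative departures and hardly any KO change. Of 19 G2/M genes, which act in the last part of the cell cycle, 18 had a negative departure, with a median of -0.04 and a range of -0.10 to 0.00. Over all tested genes the median departure was 0.01, so negative departures were not the majority there. The KO and HET medians against WT were 0.01 and -0.03. Of 17 dark zone genes, several of them also G2/M genes, 14 had a negative departure with a median of -0.03. Both medians were negative in all 27 other fits, and that of the G2/M list was -0.01 in females only. None of these had an unadjusted p under 0.05, and their departures lay within the central 90% of all tested genes. Over all 23 lists 0 members passed an adjusted p under 0.05, and the members with an unadjusted one were Ebi3, S1pr1, Zmat3 and Bmf.

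Rgs13, a responsive member of the migration and germinal centre lists, dampens chemokine receptor signals in germinal centre B cells. It measured 11.77, 11.80, 11.88 and 11.78 in WT, 11.71, 11.52, 11.67, 11.76 and 11.63 in HET, and 11.34, 11.48, 11.10, 11.30 and 10.75 in KO. The 3 groups did not overlap, and HET had a position of 0.25 with a departure of 0.16 (SE 0.10, unadjusted p = 0.135). Ifnlr1, a receptor chain for lambda interferons, fell by 1.02 (SE 0.11) and had a position of 0.34. Sdc1, the plasma cell marker syndecan-1, rose by 0.81 (SE 0.19) and had a position of 0.64.

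Promoters of 3 responsive genes at different positions are shown because CREB, which recruits the CREB-binding protein, binds the palindrome TGACGTCA and its half-site TGACG. Armcx4 lay near WT, Nr4a1 between and Jmy near KO. Each window runs from 250 bases before to 50 after the start in RefSeq (GRCm38.p6), 5′ to 3′ on the strand of the gene, and capitals mark the half-site TGACG or its reverse complement CGTCA.
Armcx4, chrX:134686269-134686568, plus strand: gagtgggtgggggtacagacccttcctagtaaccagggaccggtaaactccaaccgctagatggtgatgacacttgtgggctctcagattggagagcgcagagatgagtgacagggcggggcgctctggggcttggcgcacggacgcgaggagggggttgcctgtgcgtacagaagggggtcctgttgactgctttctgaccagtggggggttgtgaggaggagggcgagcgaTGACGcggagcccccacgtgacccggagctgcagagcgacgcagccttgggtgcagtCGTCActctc
Nr4a1, chr15:101266596-101266895, plus strand: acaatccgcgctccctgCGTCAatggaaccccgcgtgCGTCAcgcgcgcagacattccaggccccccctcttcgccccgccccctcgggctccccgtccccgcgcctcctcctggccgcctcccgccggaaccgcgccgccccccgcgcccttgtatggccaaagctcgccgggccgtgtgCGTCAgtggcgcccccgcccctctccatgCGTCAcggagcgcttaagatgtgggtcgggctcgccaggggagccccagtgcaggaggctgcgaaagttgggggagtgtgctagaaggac
Jmy, chr13:93499759-93500058, minus strand: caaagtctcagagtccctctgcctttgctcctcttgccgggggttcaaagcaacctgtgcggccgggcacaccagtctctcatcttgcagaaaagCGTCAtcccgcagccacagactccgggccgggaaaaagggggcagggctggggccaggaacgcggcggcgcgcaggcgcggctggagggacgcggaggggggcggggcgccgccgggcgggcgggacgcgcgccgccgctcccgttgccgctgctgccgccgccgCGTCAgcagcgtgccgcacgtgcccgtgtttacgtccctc
The Armcx4 window held 2 half-sites, that of Nr4a1 4 and that of Jmy 2. Only 20.6% of the windows of responsive genes held any, so these 3 do not stand for genes at their positions. The annotated gene Armcx4 begins at 134685650, before its window, so the start used here lies inside the gene. No palindrome was found in any of the 3 windows.

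Promoter windows were found in RefSeq's table for 198 of the 249 responsive genes and for 8358 of the tested genes. At least 1 half-site on either strand was present in 20.6% of the windows of responsive genes, in 32.2% of those of tested genes and in 20.8% of all windows of this length. The palindrome, each copy of which also holds a half-site on both strands, was present in 2 of the 198 responsive genes (1.01%), Kptn and Ptprs, and in 3.85% of the tested genes. By class, half-site windows made up 18.2% for genes separated from both neighbours, 23.1% for those separated from KO only and 18.5% for those separated from WT only. A match of letters is not a binding site, and no match says nothing of CREB.

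Other probe sets of the same genes were compared only where they showed the KO change too. This choice leaves out probe sets that did not, such as bright ones of Bmf and Faah. That of Faah had a KO to WT difference of 0.09 (SE 0.09). Of the responsive genes, 69 had 98 further probe sets with a KO to WT difference of the same sign at an unadjusted p under 0.05. Their median position was 0.41, and 76.5% lay on the WT side. For 3 of the 20 genes named on the WT side there were 6 such probe sets, 5 of them on the WT side, with positions from -0.12 to 0.81.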

How the data were processed

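Gene expression was measured on Affymetrix mouse expression arrays, 1 per mouse. The deposited values are log2 intensities for 45101 probe sets, 64 of them controls, made by the authors with RMA, per the submitters' processing notes. RMA's quantile step gives all arrays 1 distribution, so a shift of most genes one way would not be seen. Of the others, 34945 had 1 gene in the platform annotation, 932 had several and 9160 were unnamed here. Through gene identifiers 34741 matched RefSeq and 0 symbols changed. A gene was tested if its brightest probe set averaged above 6.43, the median probe set once controls were left out.

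Under R 4.3.3, limma 3.58.1 (functions lmFit and eBayes) fitted group and sex over 14 arrays, Benjamini-Hochberg adjustment over 10225 genes and a threshold of 0.05. It was tested on simulated data with known positions. Each p-value sets a group difference against the spread between mice of the same group, as moderated over genes by limma. Genes were named by a rule: the 5 smallest departure p-values in each direction, the 8 smallest on each side among responsive genes, the 8 largest KO changes among those separated from both groups, 2 members per list, Crebbp and Ep300. Thyn1, Poglut2, the responsive list members, the remaining genes among the 20 and others outside this rule were named after their values were seen. Members and lists were chosen with earlier results of these data known.

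Alternatives changed the brightness limit, probe set handling, normalisation, intensity scale, sex term, limma options, array weights, replicate block, thresholds and arrays left out. No 2 arrays shared more than 58 identical values.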

Additional observations from a re-analysis of the deposited data

Results flagged for a closer look

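Of 207 groups of mice examined, 3 for each of 69 named genes, 15 (7.25%) held a mouse whose gap to its nearest neighbour took up more of the group's range than Dixon's 95% limit allows, and chance flags about 1 in 20. The share of the range is given in brackets. Among genes named for their departure, HET 2 was highest of HET for Prg2 at 7.40 (0.852) and for Armcx4 at 6.92 (0.751), and KO 3 was highest of KO for Slc25a24 at 8.50 (0.721). On the KO side, KO 3 was highest of KO for 4933439C10Rik at 9.29 (0.727) and KO 5 lowest for Gstp3 at 7.11 (0.781). Among genes separated from both neighbours, HET 5 was lowest of HET for Adgrl2 at 8.57 (0.765) and WT 3 lowest of WT for Ccdc175 at 9.42 (0.861). KO 3 was lowest of KO for Crebbp at 11.71 (0.737) and for Bid at 11.66 (0.824).

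Among list genes, WT 4 was highest of WT for Klf2 at 9.18 (0.856) and for Kat2a at 9.44 (0.966), and KO 4 was lowest of KO for Klf2 at 8.22 (0.746). KO 5 was highest of KO for Ifnlr1 at 7.19 (0.807). WT 1 was highest of WT for Ifnar1 at 9.48 (0.886), and WT 2 for Kat8 at 10.11 (0.931). For Slc25a24 and Armcx4 the unadjusted p of the departure stayed under 0.05 without the mouse in question.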

How the results depend on the processing

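The count of genes with an adjusted p under 0.05 for the departure was 0 in all 27 other fits. The count of 20 on the WT side was 7 with the brightness limit at the 75th percentile, 12 with the mean of a gene's probe sets, 59 with array weights, 4 with an adjusted p under 0.1 for the choice and an unadjusted p under 0.01, and 10 without WT 4 and KO 3 together, which was chosen after seeing the data. Leaving out 1 array at a time with the responsive genes chosen anew gave 8 to 32, with 12 without WT 1, 11 without WT 2, 8 without WT 4 or HET 1, 13 without HET 2 or HET 3, 31 without HET 4 and 32 without KO 1. The KO-side count of 0 was 1 in females only, 8 with array weights, 1 with the replicate number as a block, 2 without WT 4 and KO 3, and 0 to 4 with 1 array left out, 4 without WT 4.

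The share separated from both neighbours, 41.0%, was 64.6% in females only, 7.08% with the other thresholds, 72.0% without WT 4 and KO 3, and 25.5% (without HET 4) to 55.4% with 1 array left out. The share separated from KO only, 47.8%, was 29.1% in females only and 25.3% without WT 4 and KO 3. The share separated from WT only, 11.2%, was 4.55% with no brightness limit, 6.33% in females only, 6.06% with the replicate block, 5.42% with the other thresholds, 2.67% without WT 4 and KO 3, and 3.73% (without WT 2) to 15.9% with 1 array left out. It was 4.86% without WT 1, 4.11% without WT 3, 7.05% without KO 1, 6.21% without KO 2, 6.18% without KO 3 and 3.83% without KO 4. The median position was 0.336 with array weights and 0.348 (without HET 4) to 0.436 (without WT 4) with 1 array left out. Deviations of same-numbered mice of different groups correlated at -0.175 to 0.383, with a median of 0.142 and 9 of 13 pairs over 0.1, against a median of -0.056 for other pairs. Not every pair passed 0.1, so the main fit left the number out. Whether the number marks a pairing was not tested. The replicate block called 198 responsive genes, 20 of them with an unadjusted p under 0.05 on the WT side, with a median position of 0.393. With the block 54.0% were separated from both neighbours and 39.9% from KO only, so the order of these 2 classes turned. The causes of these differences were not tested. For the 69 named genes, 1809 of the refitted departures kept their call or moved by less than the spread, 10 moved by more, and no gene named for its departure p turned direction. Genes named for that p counted as kept unless they turned direction or passed adjustment, so for them the count does not measure size. Over the fits on the log2 scale the departure of Psen2, 0.14 in the main fit, went down to 0.03. That of Slc49a4, -0.24, went to -0.10. The median SE of a departure, 0.08 log2 units, limits what can be separated from 0.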

Other observations

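The largest departures of all tested genes in either direction came with large errors. Retnla, a resistin-like secreted protein, lay 0.87 above the midpoint (SE 0.47), and Fos, an immediate early transcription factor, lay at -0.76 (SE 0.85). Smoc1, a calcium-binding matrix protein, lay at -0.60 (SE 0.22), with HET below both other groups on average. Nprl3, a subunit of the GATOR1 complex that restrains mTORC1, lay 0.23 above the midpoint (SE 0.08). These genes were chosen after their values were seen, and none passed adjustment. Smoc1 and Nprl3 had an unadjusted p under 0.05, and Retnla and Fos had not.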
